A study of Mus musculus with 6 samples.

Results

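The transcription factors that mark and build retinal ganglion cells were followed here in mouse retina at embryonic day 13.5, with and without the T-box factor Tbx3. The members are 9 genes chosen for their known roles in this fate: Pou4f1, Pou4f2, Pou4f3, Isl1, Isl2, Ebf1, Ebf2, Ebf3 and Eomes. Each was found once by symbol among the 26147 genes of the deposited table of normalized read counts, and 7 of the 9 passed the filter on low values (3 or more libraries at 10 or above) that left 18914 genes to test. There were 3 wild-type and 3 Tbx3 conditional knockout (cKO) libraries of retinal tissue, all from mice kept on a C57BL/6J background. The cKO embryos carried the Dkk3-Cre transgene and 2 floxed Tbx3 alleles (Dkk3-Cre+;Tbx3∆Fl/∆Fl). The wild types were siblings without Cre that carried 1 floxed and 1 normal allele (Tbx3Fl/+), so the presence of Cre and the loss of Tbx3 cannot be told apart. Dkk3-Cre acts in retinal progenitors, and neither the number of embryos behind a library nor their litters is stated. All p-values therefore reflect only how these 6 samples scatter, and some of that scatter may be technical.

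Ganglion cells are the earliest neurons of the retina and the only ones that send axons to the brain. Progenitors that switch on the bHLH factor Atoh7 become competent for this fate, and the POU-domain factor Pou4f2 and the LIM-homeodomain factor Isl1 then act together to start the ganglion cell programme. Pou4f1, Pou4f3, Isl2, the EBF helix-loop-helix factors and the T-box factor Eomes act in the newly formed cells, in survival, axon growth and the choice of subtype.

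The promoters of 7 of the 9 members had an entry in the RefSeq promoter table (build GRCm38.p6), 8 windows in all because Ebf1 has 2. The 250 bases before the start were searched on both strands for CAGCTG and CAGATG (E-boxes that bHLH factors such as Atoh7 can bind), AGGTGTGA (a T-box sequence), ATTAAT (a POU4 core) and the palindromic EBF consensus. CAGCTG stood in 2 of the 8 windows, those of Pou4f1 and Isl1, where 13.0% of 32851 promoters hold it. Neither CAGATG, AGGTGTGA nor the EBF consensus was in any of the 8, where 14.4%, 1.12% and 0.779% of all promoters hold them. ATTAAT was in 1, that of Eomes, against 4.39% of all. The 3 windows below belong to Pou4f1 and Isl1, which hold CAGCTG and whose groups did not overlap, and to Pou4f2, the gene most often used to mark the fate. Ebf1 and Ebf3, whose groups did not overlap either, hold no CAGCTG in their windows. Capitals mark the CAGCTG match, which begins 118 bases before the start in Pou4f1 (chr14:104468000-104468249, minus strand) and 103 bases before it in Isl1 (chr13:116309689-116309938, minus strand). The Pou4f2 window (chr8:78436648-78436897, minus strand) holds none of the 5 sequences. The bases just after its start were not found in any GENCODE M21 transcript of Pou4f2, so this start is uncertain. The same was true of Eomes and of 1 of the 2 Ebf1 windows, but not of Pou4f1 and Isl1. A match is a description of these letters, not a binding site.
Pou4f1: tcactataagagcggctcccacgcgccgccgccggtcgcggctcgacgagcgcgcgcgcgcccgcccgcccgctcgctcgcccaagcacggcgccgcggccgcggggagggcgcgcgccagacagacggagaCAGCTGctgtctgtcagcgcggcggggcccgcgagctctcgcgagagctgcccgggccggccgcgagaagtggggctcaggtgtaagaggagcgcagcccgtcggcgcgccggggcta
Isl1: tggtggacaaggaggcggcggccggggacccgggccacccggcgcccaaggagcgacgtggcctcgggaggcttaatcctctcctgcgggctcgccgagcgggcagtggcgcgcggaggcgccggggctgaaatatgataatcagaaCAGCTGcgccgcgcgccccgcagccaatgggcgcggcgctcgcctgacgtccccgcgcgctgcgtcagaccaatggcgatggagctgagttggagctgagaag
Pou4f2: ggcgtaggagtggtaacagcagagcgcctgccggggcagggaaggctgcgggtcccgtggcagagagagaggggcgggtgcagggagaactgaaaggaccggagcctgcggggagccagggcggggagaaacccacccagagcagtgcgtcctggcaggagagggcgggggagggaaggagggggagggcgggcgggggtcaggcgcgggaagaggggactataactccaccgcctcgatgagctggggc

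Depth was an estimated 21482340 to 27173677 reads per library. A gene listed at 0 could have up to 3 reads, which is 2.69 to 3.41 on the normalized scale (counting error only). Tbx3 was 1998, 2558 and 2577 in wild type against 40.3, 47.8 and 58.9 in cKO, as the labels say. Pax6, a marker of the retinal field, lay between 17968 and 18941 in all 6 libraries. A pair of libraries stood apart. In wild type 1 the summed level of 20 early neuron genes was 168661, against 35378 and 52309 in the other wild types, and that of 11 pigment epithelium genes was 1016, against 6064 and 4240. In cKO 3 the early neuron sum was 10806, against 34051 and 17902 in cKO 1 and 2, and the pigment sum was 28195, against 7368 and 6004. The fold changes of the tested factors are therefore given with all 6 libraries and without these 2.

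Every one of the 9 factors had its highest value in wild type 1, and 6 of the 9 had their lowest in cKO 3. Among all tested genes, wild type 1 was the highest library in 26.5% and cKO 3 the lowest in 26.9%. The cKO values of 4 factors, Pou4f1, Isl1, Ebf1 and Ebf3, lay below every wild-type value, and among all tested genes 11.7% did so. Leaving out libraries cannot undo this separation, so that it held without wild type 1 and cKO 3 tells nothing more. No other factor gained it there, and 20.4% of tested genes had it. By limma over all genes none of the 7 tested factors passed an adjusted p of 0.05, and 0.0634% of tested genes did. At an unadjusted p under 0.05, 3 of the 7 were lower in cKO (Pou4f1, Ebf1 and Ebf3) and none was higher, where 7.16% of tested genes were lower. By limma-voom none passed after adjustment (0.0370% of tested genes did), and its unadjusted p was under 0.05 for 4, all lower, where 5.27% of tested genes were lower at that level. Without wild type 1 and cKO 3, limma gave 4 of the 7 as lower at that level (Isl1 added), where 4.16% of tested genes were. The median log2 fold change of the 9 was -2.68, and -2.66 with Pou4f3 set at the limit that its counts of 0 allow. It was -0.80 without wild type 1 and cKO 3. The medians of all tested genes were -0.02 and -0.01. Whole tissue was measured, so fewer ganglion cells and less of each transcript per cell cannot be told apart.

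**Figure D1:**
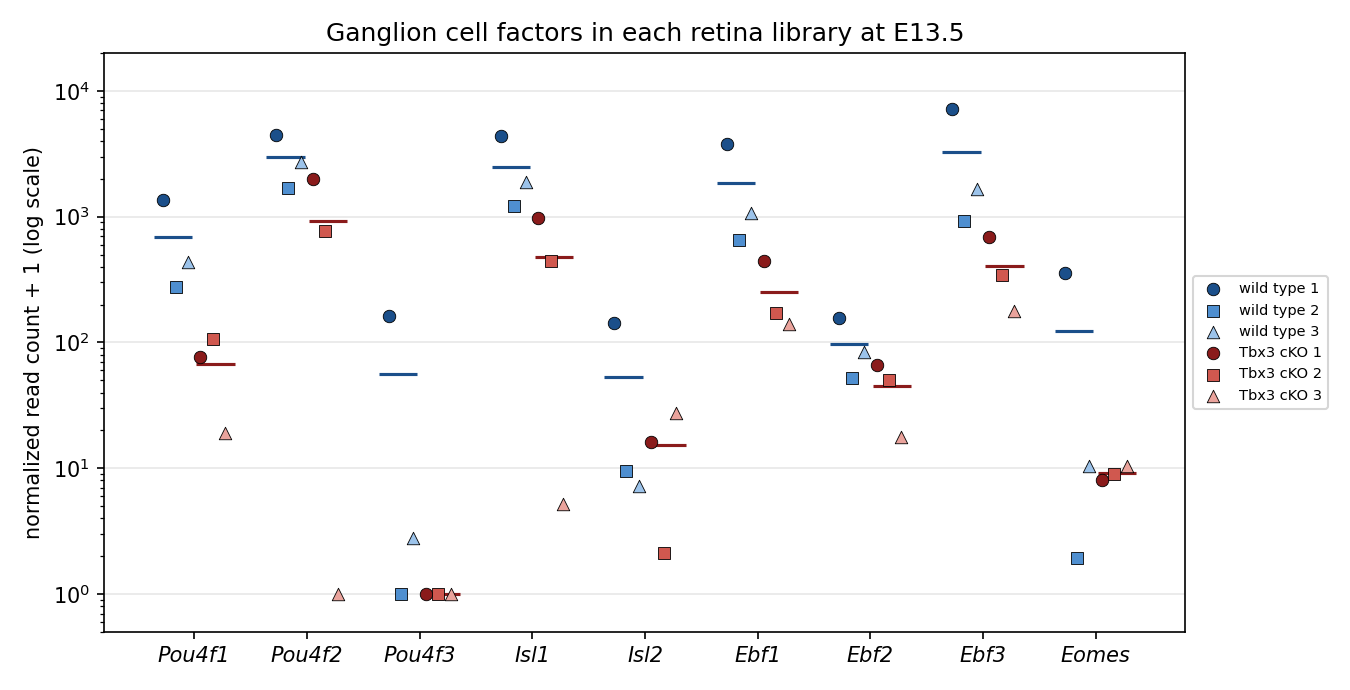
Normalized read count plus 1 (log axis) of the 9 factors in each library, with wild type in blue, Tbx3 cKO in red and bars at the group means (n = 3 each). Wild type 1 is the top point of every factor, and the 3 cKO points of Pou4f1, Isl1, Ebf1 and Ebf3 lie below all 3 wild-type points.

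The POU4 factors differed among themselves. Pou4f1 (ENSMUSG00000048349), which keeps ganglion cells alive and shapes their dendrites, was 1362, 275 and 434 in wild type against 75.6, 105 and 17.9 in cKO. All 3 cKO libraries were below all wild types, and cKO 3 was the lowest. The means were 691 ± 587 and 66.1 ± 44.2 (SD, n = 3 each), a 10.5-fold difference. The log2 fold change was -3.36 (SE 0.79, 95% interval -5.23 to -1.48, limma adjusted p = 0.283, unadjusted p = 0.00382). Without wild type 1 and cKO 3 the log2 fold change of Pou4f1 was -1.95 (SE 0.31, limma adjusted p = 0.121), a 3.94-fold difference of the means, and its unadjusted p was 0.000693.

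Pou4f2 (ENSMUSG00000031688), needed for ganglion cells to differentiate and send out axons, was 4488, 1689 and 2729 in wild type against 1984, 763 and 0 in cKO. The groups overlapped, because cKO 1 lay above wild type 2. The 0 in cKO 3 allows a value of up to 3.16. The log2 fold change was -4.58 with an SE of 2.62 (95% interval -10.8 to 1.60, limma adjusted p = 0.447). It was -1.16 without cKO 3 alone, and with wild type 1 also left out -0.80 (95% interval -1.90 to 0.29, limma adjusted p = 0.699). Pou4f3 (ENSMUSG00000024497), the third family member, which follows Pou4f2 in a subset of ganglion cells, was seen in a single library. It was 162 in wild type 1, 0 and 1.79 in wild type 2 and 3, and 0 in all cKO libraries. All values but that of wild type 1 are within what 3 reads give, so no difference between the genotypes was detectable at this depth.

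Of the LIM-homeodomain factors, Isl1 was abundant and Isl2 scarce. Isl1 (ENSMUSG00000042258) was 4351, 1209 and 1898 in wild type against 983, 446 and 4.21 in cKO. No cKO library reached the lowest wild type, and cKO 3 stood far below the other 2. The means were 2486 ± 1651 and 478 ± 490 (SD, n = 3 each). The log2 fold change was -4.03 (SE 1.82, 95% interval -8.34 to 0.28, limma adjusted p = 0.380). Without the pair of libraries that stood apart, Isl1 was lower by a log2 fold change of -1.19 (95% interval -2.14 to -0.24, limma adjusted p = 0.515), or 2.17-fold by the means. Isl2 (ENSMUSG00000032318), a mark of ganglion cells whose axons cross to the other side of the brain, was 143, 8.46 and 6.28 in wild type against 15.1, 1.14 and 26.3 in cKO. Apart from wild type 1 the groups were mixed, and the log2 fold change of -1.13 (SE 1.41, limma adjusted p = 0.719) turned to 0.24 without wild type 1 and was -0.50 without both that library and cKO 3 (limma adjusted p = 0.932).

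The EBF factors act after Pou4f2 and Isl1 in ganglion cell differentiation and axon guidance, and are also made in mesenchyme outside the retina. Ebf1 (ENSMUSG00000057098) was 3813, 650 and 1073 in wild type against 439, 171 and 139 in cKO. Ebf3 (ENSMUSG00000010476) was 7203, 925 and 1668 in wild type against 688, 345 and 178 in cKO. In both, the highest cKO value was below the lowest wild-type value. The log2 fold change was -2.66 for Ebf1 (SE 0.70, 95% interval -4.31 to -1.01, limma adjusted p = 0.303). That of Ebf3 was -2.68 (SE 0.79, 95% interval -4.55 to -0.80, limma adjusted p = 0.320). Without wild type 1 and cKO 3 they were -1.60 and -1.35 (limma adjusted p = 0.425 and 0.437). Ebf2 (ENSMUSG00000022053) was the lowest of the 3, with 154, 50.7 and 82.5 in the wild types against 65.5, 48.9 and 16.8 in the cKO libraries. Its groups overlapped, and its log2 fold change of -1.17 (SE 0.62, limma adjusted p = 0.422) was -0.19 without the 2 libraries. The summed level of 15 periocular mesenchyme genes was 1282, 10039 and 3991 in wild type against 8620, 4390 and 19599 in cKO. This sum was lowest in wild type 1, where the EBF factors were highest, and highest in cKO 3, where all 3 were lowest. These are the 2 libraries that stood apart, and the part of mesenchyme in the EBF values was not tested. No mesenchyme gene of that list was at 0 in any library.

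Eomes (ENSMUSG00000032446), a T-box factor of later ganglion cells and of the melanopsin-bearing subtype, was 358, 0.940 and 9.33 in wild type against 7.06, 7.96 and 9.47 in cKO. Wild type 1 was far above the other 5 libraries, which lay between 0.940 and 9.47. Of these, only wild type 2 was within what 3 reads give. It did not pass the filter on low values. The log2 difference of Eomes was -1.08 with all libraries and 1.03 without wild type 1.

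By the exact two-sided permutation test of each factor's 6 values, p was 0.1 for Pou4f1, Isl1, Ebf1 and Ebf3, the smallest that 3 against 3 allows. It was 0.2 for Pou4f2 and Ebf2, 0.4 for Pou4f3, 0.6 for Isl2 and 0.8 for Eomes.

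**Figure D2:**
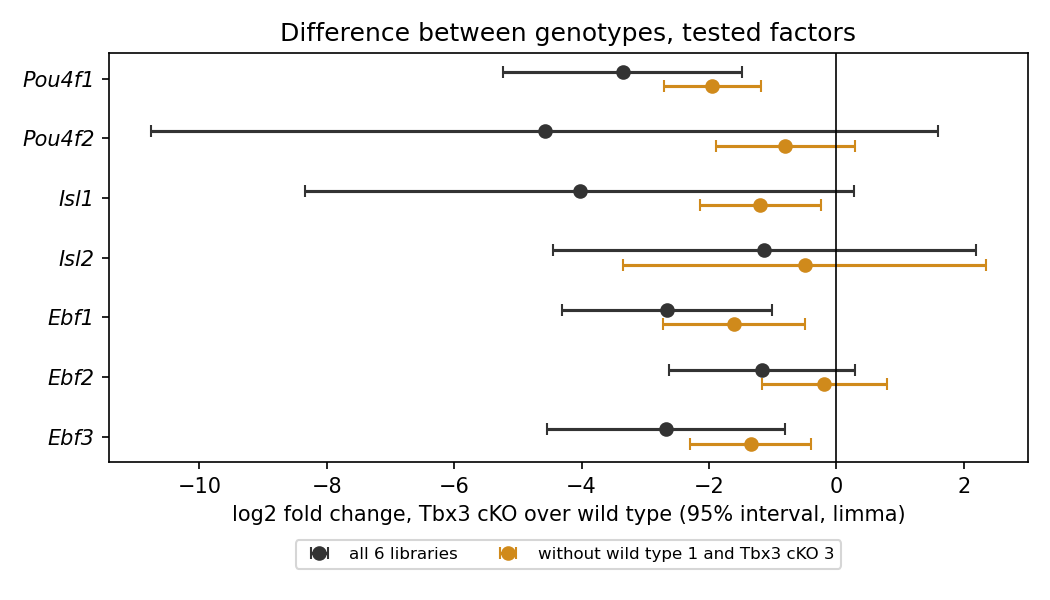
Log2 fold change (Tbx3 cKO over wild type) with its 95% limma interval for the 7 tested factors, with all 6 libraries (black) and without wild type 1 and Tbx3 cKO 3 (orange). Intervals of Pou4f1, Ebf1 and Ebf3 lie below 0 in both fits before adjustment over all genes, that of Isl1 does so without the 2 libraries (-2.14 to -0.24), and that of Pou4f2 spans 0 in both (-10.8 to 1.60 and -1.90 to 0.29).

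Levels of different genes were set side by side per kilobase of exon, with lengths from GENCODE M21. In each of the 3 wild types the order of the leading 5 was the same: Pou4f2, Isl1, Ebf3, Ebf1 and Pou4f1. In wild type 2 these were 527, 305, 100.3, 66.6 and 58.9 normalized reads per kilobase, and in wild type 1 they were 1401, 1099, 781, 391 and 292. The means per kilobase over the wild types were 927 ± 442 for Pou4f2 and 628 ± 417 for Isl1 (SD, n = 3 each). Those of Ebf3, Ebf1 and Pou4f1 were 354 ± 372, 189 ± 176 and 148 ± 126. These SDs are between libraries, with wild type 1 highest for each gene, and do not measure differences between genes within a library. Pou4f2 was above Isl1 in each wild type, also in wild type 3 (852 against 479). The cKO means were 286 ± 312 for Pou4f2, 121 ± 124 for Isl1, 43.7 ± 28.2 for Ebf3, 25.6 ± 16.9 for Ebf1 and 14.1 ± 9.45 for Pou4f1. The order in cKO 1 was that of the wild types, and in cKO 2 Pou4f1 (22.4) stood above Ebf1 (17.5). In cKO 3 the order differed more, with Ebf3 at 19.3, Ebf1 at 14.2, Pou4f1 at 3.83, Isl1 at 1.06 and Pou4f2 at 0 per kilobase.

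The factors also varied between wild types, and not all alike. Wild type 1 exceeded the mean of wild type 2 and 3 by 2.03-fold for Pou4f2 and 2.80-fold for Isl1, the factors that start the programme. Ebf2 exceeded it by 2.31-fold, Pou4f1 by 3.84-fold, Ebf1 by 4.43-fold, Ebf3 by 5.55-fold and Isl2 by 19.4-fold. The same ratio was 1.35 for Atoh7 and had a median of 3.72 over the 20 early neuron genes. Outside wild type 1, Pou4f3 was within the 3-read limit and Eomes was at most 9.47. Shh, the signal that ganglion cells send back to progenitors, was also by far the highest in wild type 1, at 176. It was 7.52 and 12.6 in the other wild types, above the 3-read limit, and 0 in every cKO library.

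**Figure D3:**
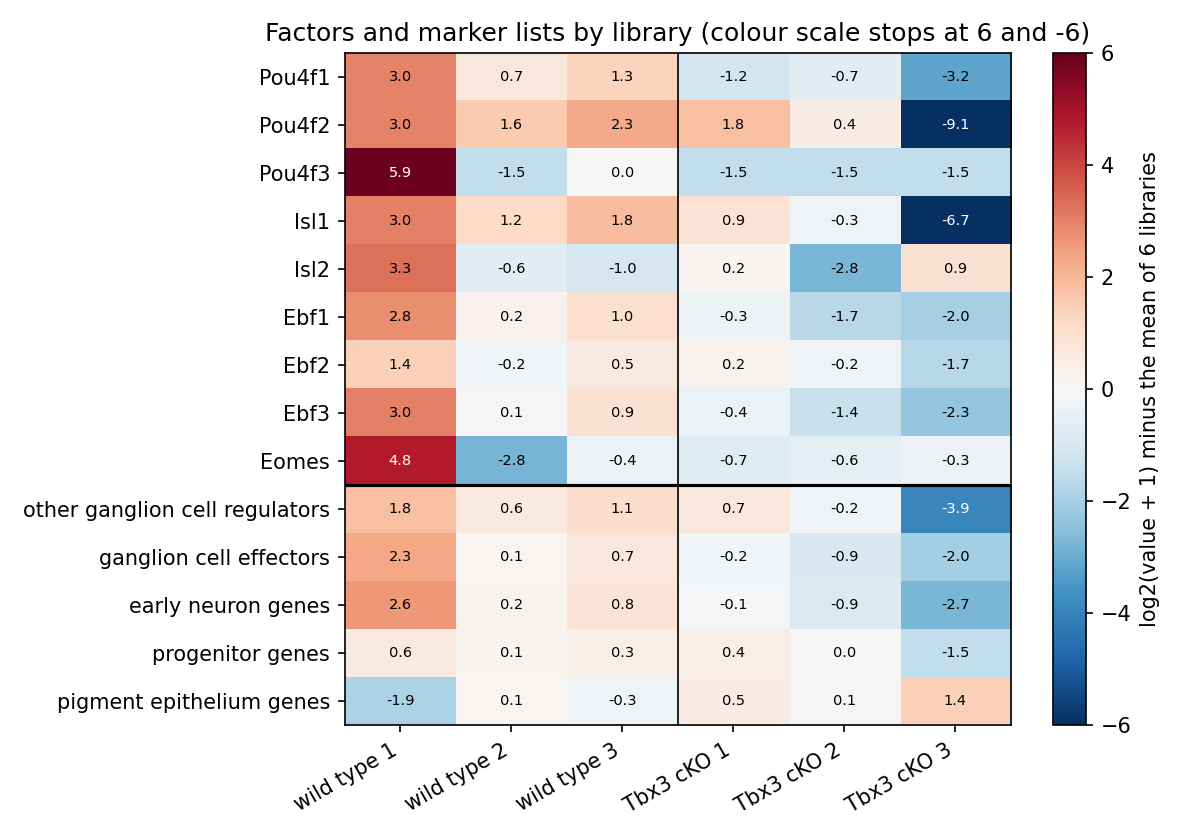
Log2(value + 1) of each factor, and the mean of 5 marker lists, minus the mean over the 6 libraries, with colours that stop at 6 and -6. Wild type 1 is highest in all 9 factors and lowest for pigment epithelium genes (-1.88), and Tbx3 cKO 3 is at -9.13 for Pou4f2 and -6.68 for Isl1 and highest for pigment epithelium genes (1.44).

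To set the factors against neurons in general, each was expressed in each library relative to the mean log2 level of the 20 early neuron genes. On this scale Pou4f1 was -2.17, -2.07 and -2.01 in the wild types, a spread of 0.08 (SD, n = 3) although its own level ranged from 275 to 1362. In cKO it was -3.65, -2.38 and -3.00, all below the wild types, a difference of -0.92. Leaving out wild type 1 and cKO 3 gave a difference of -0.97. Relative to these genes Ebf2 was higher, with -5.31, -4.48 and -4.39 for the wild types against -3.85, -3.46 and -3.09 for cKO. The difference was 1.26 (0.78 without the 2 libraries). The mean log2 level of the early neuron genes itself differed by -2.43, so a gene that fell less comes out higher on this scale. The unscaled level of Ebf2 was not higher in cKO (log2 fold change -1.17, groups overlapping). The exact permutation test gave p = 0.1 for Pou4f1 and Ebf2 and at least 0.4 for the other 7 of the 9 factors, with 0.1 the smallest it can give. Relative to the ganglion cell effector genes, Pou4f1, Ebf1 and Ebf3 were lower in every cKO library than in any wild type, and Ebf2 was higher. The mean log2 level of the effector genes itself differed by -2.09. How many of all tested genes separate in this way on either scale was not determined, so how common such separations are is not known.

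Pou4f2 relative to early neuron genes was -0.45, 0.55 and 0.64 in wild type against 1.05, 0.48 and -7.24 in cKO. Isl1 was -0.50, 0.06 and 0.12 in wild type against 0.04, -0.30 and -4.86 in cKO. In cKO 1 and 2 Isl1 was within the wild-type range and Pou4f2 within or above it, and in cKO 3 both were far below. In cKO 3 Ebf1 (-0.11) and Ebf3 (0.24) were by contrast at or above the wild-type range.

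**Figure D4:**
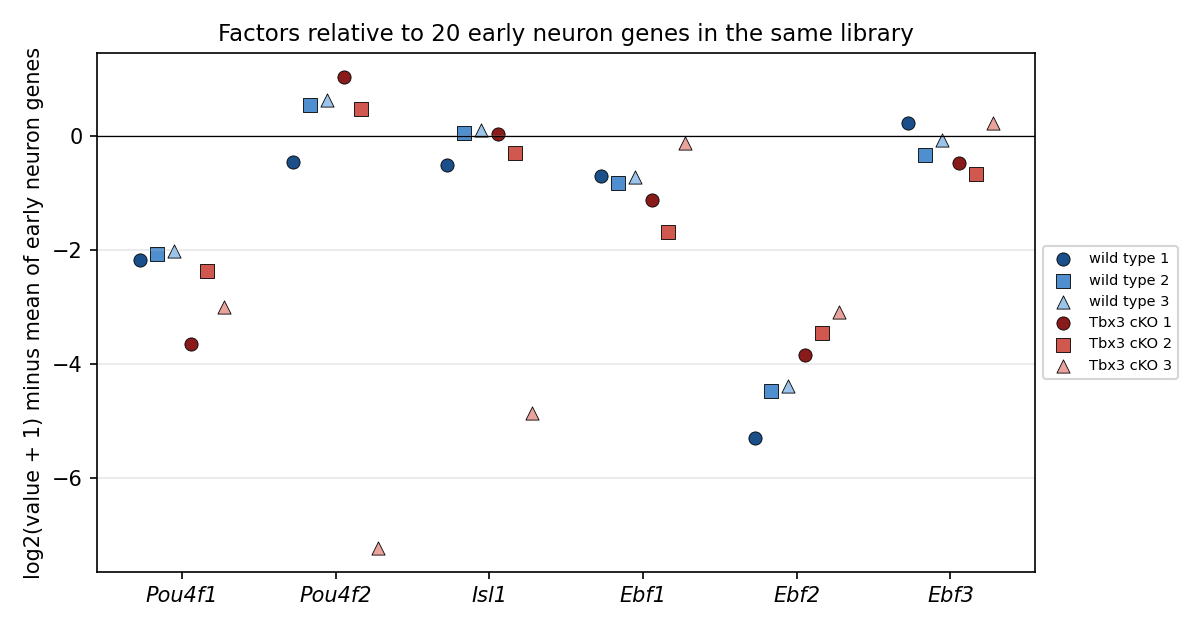
Log2(value + 1) of 6 factors minus the mean of 20 early neuron genes in the same library. The wild-type points of Pou4f1 lie between -2.17 and -2.01 with all cKO points below them, and Tbx3 cKO 3 is far below the other 5 libraries for Pou4f2 (-7.24) and Isl1 (-4.86).

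Other genes of the ganglion cell programme were taken from 3 lists that do not contain the 9 factors. Of 19 tested regulators, none passed limma after adjustment, an unadjusted p under 0.05 was reached by 5 that were lower and 1 that was higher (7.16% and 6.39% of all tested genes), and the median log2 fold change was -3.09 (-0.61 without wild type 1 and cKO 3). Atoh7 was 17556, 11596 and 14438 in wild type against 11873, 6024 and 4.21 in cKO, with a log2 fold change of -4.32 (-0.61 without the 2 libraries). Lhx2, a homeobox factor of eye progenitors, was the regulator of smallest p and was higher, at 4588 ± 293 against 8446 ± 1139 (SD, n = 3 each, limma adjusted p = 0.104). Next came the bHLH factors Neurod4 (891 ± 869 against 83.4 ± 73.0) and Nhlh2 (1284 ± 1236 against 152 ± 126). The log2 fold changes of Lhx2, Neurod4 and Nhlh2 were 0.87, -3.69 and -3.40 with all libraries, and 0.96, -1.71 and -1.34 without the 2.

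Of 20 tested effectors, none passed after adjustment by limma. An unadjusted limma p under 0.05 was reached by 8, all lower, where 7.16% of all tested genes were lower at that level. The median log2 fold change was -2.29 (-0.85 without the 2 libraries). The adhesion molecule gene L1cam was 3669, 451 and 794 in wild type against 254, 143 and 90.5 in cKO. The neurofilament gene Nefm was 22016, 4510 and 7861 against 2005, 1175 and 121. As with Pou4f1, the groups of L1cam and Nefm did not overlap, and 11.7% of all tested genes were lower in this way. Their log2 fold changes were -2.87 and -3.80 with all libraries, and -1.64 and -1.96 without the 2.

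Among 15 genes of ganglion cell subtypes, transcription factors apart from the melanopsin gene Opn4, the picture was mixed. None passed limma after adjustment. An unadjusted limma p under 0.05 was reached by 5 that were lower and 2 that were higher (7.16% and 6.39% of all tested genes). The higher ones were Bnc2 (log2 fold change 2.17) and Opn4 (1.54), at 1.15 and 0.48 without wild type 1 and cKO 3. The median log2 fold change of the 15 was -0.35 (-0.36 without the 2 libraries). Irx6 was 362, 44.2 and 98.7 in wild type against 17.1, 3.41 and 1.05 in cKO, and its neighbour in the Iroquois family Irx5 was 654, 170 and 114 against 33.3, 27.3 and 73.7. Satb1 differed little but evenly, at 2858 ± 76.1 against 2307 ± 39.1 (SD, n = 3 each, log2 fold change -0.31, limma adjusted p = 0.312). Without the 2 libraries the log2 fold change was -0.29 for Satb1, -2.91 for Irx6 (from -4.43) and -2.17 for Irx5 (from -2.49). All 20 early neuron genes had a negative log2 fold change, against 52.0% of all tested genes. Of the 20, 15 were lower at an unadjusted limma p under 0.05, as were 7.16% of all tested genes. None passed limma after adjustment, and the median was -2.37 (-0.96 without the 2 libraries). The 3 of smallest p were Stmn4 (1114 ± 789 against 191 ± 107), Nsg2 (1541 ± 1664 against 184 ± 108) and Gap43 (5412 ± 6003 against 664 ± 311). Without the 2 libraries their log2 fold changes were -1.45, -1.44 and -1.21.

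The genes closest in pattern were sought among 11622 others with a mean of at least 100, by the root mean square difference of the centred log2 profiles over the 6 libraries. Pou4f2 was closest to Atoh7 (0.32), Neurod1 (0.38) and Onecut1 (0.39), regulators of early retinal neurons that were likewise at or near 0 in cKO 3. Isl1 was closest to the neuropeptide gene Gal (0.37), Insm2 (0.40) and Mmp24 (0.45). Ebf1 was closest to Nsg2 (0.16), Prdm1 (0.16) and Chga (0.18), which kept values of 17.9 to 105 in cKO 3. Eomes had no close match, with Islr2 (1.15), Epha8 (1.22) and Apba1 (1.25) as its nearest. These distances rest on 6 libraries of which 2 stand apart, and they describe those libraries.

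Markers of some other cells also differed between the groups, and those of others varied between libraries within a group. All 10 macrophage genes were higher in every cKO library than in any wild type, as were 10.6% of all tested genes, with summed levels of 854 to 1535 in wild type against 3128 to 6312 in cKO. The 10 red cell genes summed to 62825 to 97301 in wild type against 194685 to 610175 in cKO, and the 11 pigment epithelium genes to 1016 to 6064 and 6004 to 28195. None of these 3 lists had a gene at 0 in any library. Of the genes of sensory ganglia, which also make Pou4f1, Pou4f3 and Isl1, the 13 found summed to 4596 in wild type 1 and 236 to 682 in the other libraries. Of the 8 tested, 5 were highest in wild type 1, and their median ratio of wild type 1 to the mean of the other wild types was 5.26. In 3 of the 13 some library was at 0, and among these Prph was 36.4 in wild type 1 and 0 to 5.38 elsewhere, and Tlx3 was at most 7.96 in any library. The median log2 fold change was 1.76 for macrophage genes, 2.10 for red cell genes, 1.39 for pigment epithelium and -1.06 for sensory ganglia, and 1.16, 1.76, 0.36 and -0.52 without wild type 1 and cKO 3. That of mesenchyme (15 tested) changed sign, from 1.31 to -0.17 without the 2. It went from 1.40 to 0.48 for mural and endothelial cells (14), from -1.66 to -3.51 for lens (11) and from -1.40 to -0.42 for horizontal and amacrine genes (11). For photoreceptor precursors (7) it went from -0.88 to -0.59, and for progenitors (16) from -0.69 to -0.12. The 12 lens genes found summed to 621, 159079 and 57962 in wild type against 682, 111606 and 1070 in cKO. They were thus high in wild type 2, wild type 3 and cKO 2, and their medians do not describe a difference between the genotypes. The part of all these other cell types in the differences of the factors was not tested.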

How the data were processed

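RNA was selected for poly(A) and made into strand-specific libraries, per the labels' protocols. The submitters' processing notes name STAR 2.7.8a, cutadapt 4.2, Partek and the build GRCm39 (mm39). What each did, the counter, the strand setting and the scaling were not given in the sources used here. Deposited by the authors was 1 signal per gene and library, normalized read counts that are not whole. The value of 1 read was taken as the smallest frequent low value of a library. Of values up to 20 reads, 76.1 to 78.2% lay within 0.02 reads of a whole number, so whole reads were not recovered and the main fit used no count model. Limma-voom, which is made for counts, was run on these same values as an alternative, and its results carry that limit.

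Values were taken as log2(value + 1), which understates changes of low genes, and compared with limma-trend (R 4.3.3, limma 3.58.1) by two-sided tests without covariates, adjusted over 18914 genes by Benjamini-Hochberg. Genes without a symbol (108, with 0.0410% of the total) stayed in the fit. On simulated counts for these genes at a dispersion of 0.1, 96% of 4-fold and 8% of 2-fold changes were recovered. Only genes with a mean of at least 100 were changed in the simulation. The tested factors spread more between libraries than that dispersion gives (Pou4f1 was 691 ± 587 in wild type), so these shares do not hold for them. Promoter coordinates are of GRCm38.p6, not the build of the counts.

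The members and lists were chosen with earlier results of these data known. Named were Tbx3, Atoh7, the 9 factors, the 3 genes of smallest p in each ganglion cell or early neuron list, and the 3 genes closest in pattern to Pou4f2, Isl1, Ebf1 and Eomes; 1 of these genes is not reported here. Shh, Pax6, Prph, Tlx3, Bnc2 and Opn4 were picked from the lists with their values known. As alternatives, other settings were tried of the pseudocount, filter, normalization, test, replicate block and leaving out libraries.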

Additional observations from a re-analysis of the deposited data

How the results depend on the processing

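No factor passed the adjusted threshold under any of the 19 alternatives, and 166 of 170 alternative values of single factors were below 0. The exceptions were Isl2 with library weights (0.19) and without wild type 1 (0.24, range -1.91 to 0.24 over single libraries left out), and Eomes without wild type 1 (1.03, range -2.74 to 1.03) and without wild type 1 and cKO 3 (0.93). The median of the 9 ran from -3.31 to -1.83 over single libraries left out and was -0.80 without both. The median difference relative to early neuron genes was -0.25, from -0.38 to -0.06 over single libraries left out, and 0.17 without both. Over all genes 12 were called, against 55 with library weights, 7 by limma-voom, 43 without both libraries and 1 to 10 with a single library left out. The cause of these shifts was not tested. Same-numbered libraries did not deviate together throughout (r = 0.33, 0.02 and 0.04 over genes), so the numbers were not taken as pairs. The fit with the replicate block called 13 genes, which included 10 of the 12, and no factor (smallest limma adjusted p 0.0688, for Ebf1). Depth limits Pou4f3, Isl2 and Eomes, which outside wild type 1 were at most 26.3 in any library.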
